A study of Mus musculus with 9 samples.

Results

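Glycolysis and the hypoxia response were followed through 35 genes among 54532 Ensembl identifiers in the count table. The genes were listed by symbol, but earlier results of these data were known when they were chosen. They encode 2 glucose transporters, the enzymes from hexokinase to lactate dehydrogenase, 2 lactate transporters, the kinase that shuts off pyruvate dehydrogenase, a subunit of the hypoxia-inducible factor HIF and genes that HIF is known to induce. All 35 were found in the table, and 34 passed the filter on low counts and were tested. The cells were bone marrow neutrophils of C57/B6 wild type mice, a common inbred laboratory strain, held for 12 h at 0.5% fetal bovine serum (FBS). They had been co-cultured in DMEM with PyMT-N cells, co-cultured in DMEM with PyMT-M cells, or cultured alone, with 3 libraries per group. PyMT, polyoma middle T antigen, drives a mouse model of mammary carcinoma. The sources used here give neither the meaning of the letters N and M nor the age and number of the mice. After co-culture the neutrophils were isolated by FACS, a fluorescence-based cell sort, and no label states that cells cultured alone were sorted, so co-culture and sorting cannot be told apart in either comparison with them.

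Glycolysis takes up glucose through transporters of the Slc2a family, phosphorylates it, splits it and ends in pyruvate, which lactate dehydrogenase turns into lactate for export with a proton. Neutrophils hold few mitochondria and draw most of their ATP from this pathway. When oxygen is scarce, prolyl hydroxylases of the Egln family no longer mark the HIF alpha subunit for degradation, and HIF raises transcription of glycolytic genes, of Pdk1, of Vegfa and of the hydroxylase gene Egln3, among many others. HIF alpha is controlled mainly at the protein level, and its transcript also rises in myeloid cells under inflammatory stimulation.

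Totals per library spanned 1641049 to 4524563 counts. A level of 1 CPM, the usual depth-scaled count, stood for 1.64 to 4.52 counts. All CPM below are normalised CPM, scaled by TMM (a trimmed mean of log ratios), and SE is the standard error of a log2 fold change. The neutrophil genes S100a8, S100a9, Csf3r, Cxcr2 and Ly6g had at least 43 counts in each library. Markers of other cells differed between groups. Of 25 epithelial markers, 24 had a count with PyMT-N cells, 19 with PyMT-M cells and 17 alone, and their summed level was 2673 to 3567 CPM, 128 to 193 CPM and 85.2 to 145 CPM in the same order of groups. Of 25 mesenchymal markers, 16, 20 and 15 had a count, and their sums were 1579 to 1935 CPM with PyMT-N cells, 1437 to 1574 CPM with PyMT-M cells and 216 to 267 CPM alone. Lcn2 was left out of the first list and Vim and Zeb2 out of the second after their values were seen, since neutrophils express them. With all 26 epithelial genes the sums were 4453 to 4838 CPM, 679 to 964 CPM and 1215 to 1654 CPM in PyMT-N co-culture, PyMT-M co-culture and alone, and with all 27 mesenchymal genes 2260 to 2531 CPM, 3909 to 4582 CPM and 1680 to 1949 CPM. Alone libraries were thus above PyMT-M libraries for the full epithelial list, and PyMT-M libraries were highest for the full mesenchymal list. Epcam had 528 to 888 counts per PyMT-N library, 8 to 10 per PyMT-M library and 0 in all alone libraries. Krt8 had mean levels of 378 CPM with PyMT-N cells, 43.5 CPM with PyMT-M cells and 0.149 CPM alone. In the same order Krt18 had 332, 0.127 and 0.697 CPM and Cdh1 had 228, 0.566 and 9.71 CPM. Col1a1 had 4, 2 and 4 counts in PyMT-N libraries, 199, 299 and 118 in PyMT-M libraries and 28, 14 and 1 in alone libraries. Pdgfrb had 2, 0 and 0 counts, 133, 151 and 70 counts and 0, 0 and 20 counts in that order of groups, and Col1a2 was at 0 in all PyMT-N and alone libraries and at 3, 1 and 0 in PyMT-M libraries. Cald1, also a mesenchymal marker, was instead highest with PyMT-N cells, at a mean of 412 CPM, against 143 CPM with PyMT-M cells and 1.72 CPM alone. The sum of 20 neutrophil markers was 21200 to 27068 CPM, 16446 to 20873 CPM and 36906 to 51935 CPM in PyMT-N co-culture, PyMT-M co-culture and alone. Markers of other leukocytes were highest alone. B cell markers summed to 17.4 to 23.4 CPM, 80.9 to 127 CPM and 602 to 1405 CPM in the same order, and eosinophil and basophil markers to 22.1 to 28.2 CPM, 15.2 to 16.4 CPM and 411 to 528 CPM. Dendritic cell markers summed to 233 to 247 CPM, 187 to 230 CPM and 636 to 1127 CPM, and monocyte and macrophage markers to 1509 to 1840 CPM, 1263 to 1573 CPM and 3044 to 3538 CPM. Whether RNA of other cells contributed to the values of the 35 genes was not tested. In such bulk libraries, fewer cells of a type and less RNA per cell cannot be told apart. Alone replicate 3 was the shallowest library and held 1.75% of its counts in mitochondrial messenger RNA, against 0.18% to 0.769% elsewhere. In the annotation 14 of the 35 genes share exon bases with another gene, at most 26.4% of their exon length (Ankrd37, on the other strand). Pfkm, Pkm and Hif1a share bases on the same strand. No source used here says whether counting used the strand.

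The first comparison asked what 12 h with PyMT-N cells did to these genes. Most of them were higher than in neutrophils cultured alone: 23 of 34 tested genes were higher, 6 were lower and 5 did not pass the threshold, an adjusted p under 0.05 by edgeR's quasi-likelihood test with Benjamini-Hochberg adjustment over all tested genes. Among all 12012 tested genes, 29.4% were higher, 23.6% were lower and 53.0% were called in either direction. The median log2 fold change was 0.97 over the 34 genes, the same with Adm at its lower bound, and 0.12 over all genes. Slc2a1, the late enzyme genes Tpi1 and Pgam1, Ldha, Slc16a1, Hif1a, Egln1, Egln3 and the HIF target P4ha1 were among those higher, and Slc2a3, Hk3, Gpi1, Pfkfb4, Aldoa and Ndrg1 were lower. The 3 PyMT-N libraries and the 3 alone libraries did not overlap for 30 of the 34, and 56.7% of all tested genes had groups that did not overlap.

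With PyMT-M cells the genes split evenly, with 12 higher, 12 lower and 10 not past the threshold. Of all tested genes, 28.1% were higher, 27.9% lower and 56.0% called in either direction in this comparison. The median log2 fold change was -0.07 over the 34 genes and -0.03 over all genes. Groups did not overlap for 22 of the 34, and for 57.9% of all tested genes. The alone libraries serve in both comparisons, so the calls of the co-cultures are not independent of each other. By the calls, 12 genes were higher with either cell line, namely Slc2a1, Pfkm, Pfkp, Tpi1, Ldha, Slc16a1, Pdk1, Hif1a, Egln1, P4ha1, P4ha2 and Adm. Slc2a3, Hk3, Gpi1, Pfkfb4, Aldoa and Ndrg1 were lower with either. Pfkfb3 and Ankrd37 were higher with PyMT-N cells and lower with PyMT-M cells. The share of all tested genes with each of these joint patterns is not given here, so the joint counts only describe the 34 genes.

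Set directly against PyMT-M co-culture, PyMT-N co-culture had 18 of the 34 genes higher, 4 lower and 12 not past the threshold. The background here was 19.1% of all tested genes higher, 15.5% lower and 34.6% in either direction, and groups did not overlap for 26 of the 34 genes and for 52.9% of all genes. The median log2 fold change was 0.58 over the 34 genes and -0.02 over all. The 4 lower genes were Slc2a3, Pfkm, Slc16a1 and P4ha2. Among the 12 not past the threshold, Eno1, Hif1a and Vegfa were called higher with PyMT-N cells when the alone libraries were left out of the edgeR fit. Their log2 values were then 0.92 (adjusted p = 6.51e-05), 0.49 (adjusted p = 0.0126) and 0.60 (adjusted p = 0.00609). Adm, P4ha2 and Pfkm had 0, 3 and 4 counts over the alone libraries and Aldoc had 8 over the PyMT-M libraries, so these passed the filter through the other groups. Adm, P4ha2 and Pfkm are counted above as higher in both comparisons with alone, and Aldoc as higher with PyMT-N than with PyMT-M cells. Their high groups let them into the test, so those calls only describe them. The libraries of a group are called biological replicates but are not tied to animals, and the p-values therefore measure the spread between these libraries.

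**Figure D1:**
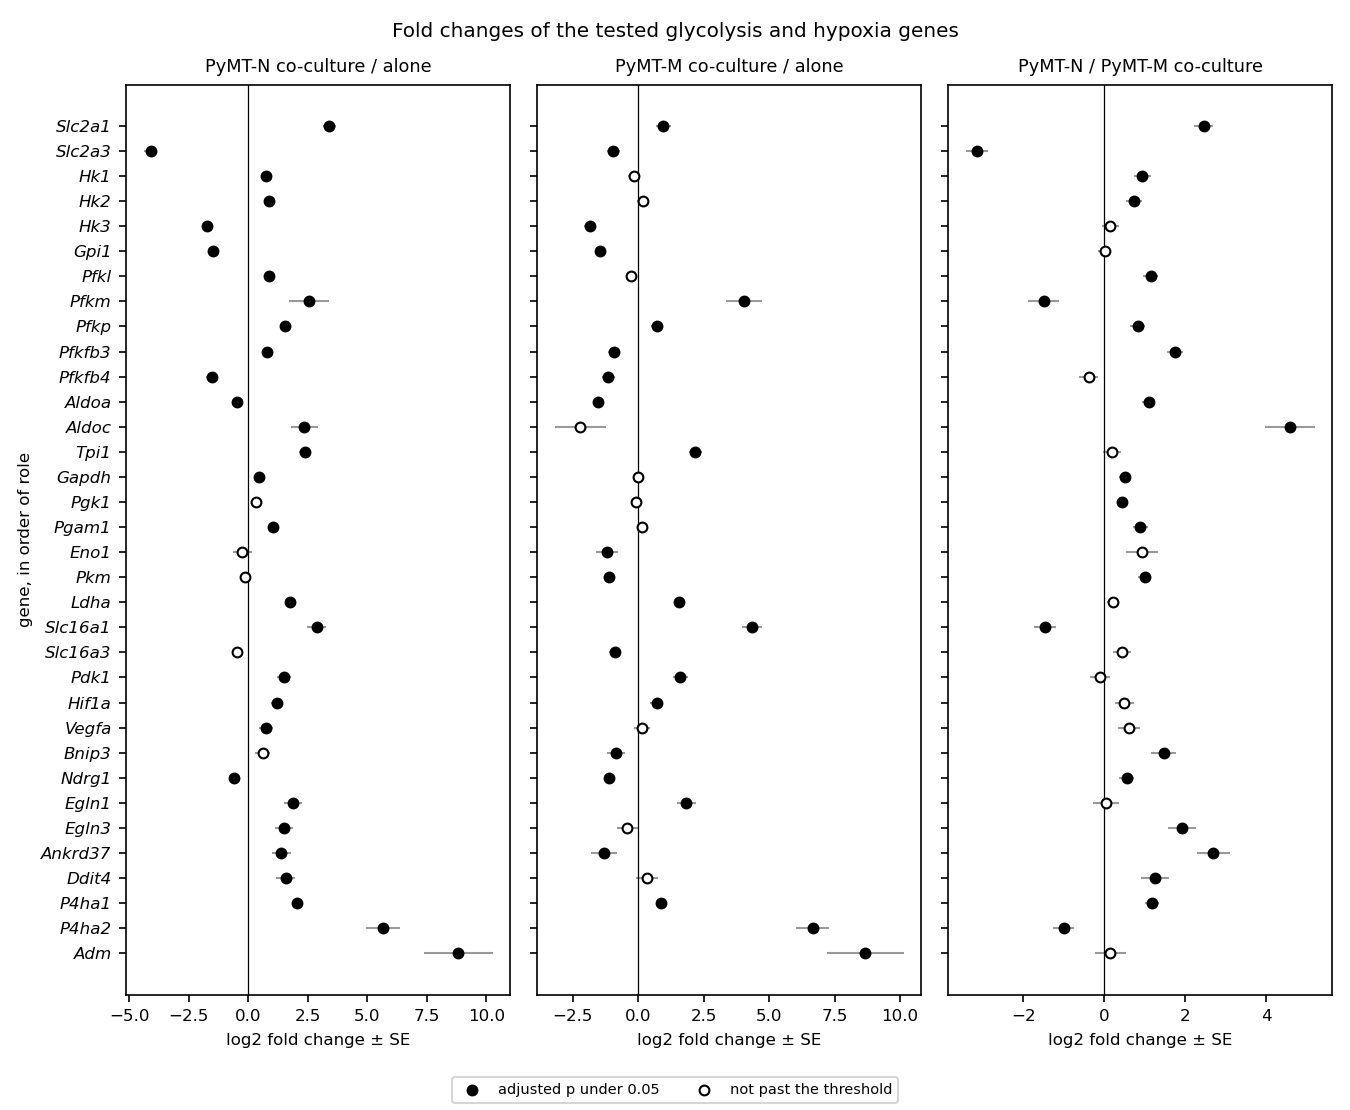
Log2 fold change ± SE of the 34 tested genes in order of role, for PyMT-N co-culture over alone (left), PyMT-M co-culture over alone (middle) and PyMT-N over PyMT-M co-culture (right), with filled points for an adjusted p under 0.05 by edgeR. In the left panel 23 filled points lie right of 0 and 6 left of it, in the middle panel 12 lie on either side, and in the right panel 18 lie right and 4 left. The points of Adm over alone, where it had 0 counts, are fitted values and no bounds.

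HIF binds DNA at a short core, ACGTG or GCGTG, so the RefSeq promoter windows of the GRCm38.p6 build, 250 bases before to 50 bases after a gene's start, were searched for that core on both strands. On the printed strand the reverse matches read CACGT or CACGC, and a palindromic CACGTG counts as 2 overlapping matches. Windows were given for 33 of the 35 genes, all but Slc2a3 and Ndrg1, and 30 of the 33 (90.9%) held a match in at least 1 window, as did 67.9% of the 8976 tested genes with a window. Per window, 38 of 47 (80.9%) held a match, against 61.9% of the 11503 windows of tested genes and 43.8% of all 32851 windows. Adm, with the largest fitted rise over alone for either cell line (it had 0 counts alone, so only a lower bound holds), and Hk3, with the largest fall past the threshold in PyMT-M co-culture, are shown by rule, and Slc2a1, Slc16a1 and Ldha were added after their values were seen, because the results turn on them. Matched bases are in capitals. They lie at chr7:110627407-110627706 (Adm, plus strand, 2 matches), chr4:119108495-119108794 (Slc2a1, plus strand, 2 matches), chr3:104638414-104638713 (Slc16a1, plus strand, 5 matches), chr7:46845554-46845853 (Ldha, plus strand, 7 matches) and chr13:55021336-55021635 (Hk3, minus strand, 1 match). A match is a run of letters and shows no binding. The 35 include genes chosen as known HIF targets, so their higher share of matches describes that choice and not these libraries.
Adm: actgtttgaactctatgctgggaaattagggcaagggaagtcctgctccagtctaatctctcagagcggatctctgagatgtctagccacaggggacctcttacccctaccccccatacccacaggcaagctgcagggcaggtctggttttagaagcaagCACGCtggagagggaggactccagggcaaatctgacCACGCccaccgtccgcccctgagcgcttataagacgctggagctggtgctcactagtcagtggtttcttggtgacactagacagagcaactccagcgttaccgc
Slc2a1: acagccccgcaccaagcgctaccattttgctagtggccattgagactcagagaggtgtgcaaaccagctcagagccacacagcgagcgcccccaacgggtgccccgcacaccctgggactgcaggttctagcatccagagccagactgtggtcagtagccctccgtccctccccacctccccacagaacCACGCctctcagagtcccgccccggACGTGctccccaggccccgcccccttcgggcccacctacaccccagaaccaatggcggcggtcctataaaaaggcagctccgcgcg
Slc16a1: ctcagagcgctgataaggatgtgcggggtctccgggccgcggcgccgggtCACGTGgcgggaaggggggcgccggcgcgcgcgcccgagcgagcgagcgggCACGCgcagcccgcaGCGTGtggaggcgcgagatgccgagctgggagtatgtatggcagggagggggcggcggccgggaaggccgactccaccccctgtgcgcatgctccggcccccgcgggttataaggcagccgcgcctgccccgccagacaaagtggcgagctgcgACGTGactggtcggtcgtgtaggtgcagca
Ldha: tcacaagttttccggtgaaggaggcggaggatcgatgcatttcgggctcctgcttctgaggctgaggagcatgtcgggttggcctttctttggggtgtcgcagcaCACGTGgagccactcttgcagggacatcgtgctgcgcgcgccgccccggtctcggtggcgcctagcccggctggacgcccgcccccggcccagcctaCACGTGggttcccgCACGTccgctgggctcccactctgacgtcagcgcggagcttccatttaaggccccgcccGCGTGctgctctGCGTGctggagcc
Hk3: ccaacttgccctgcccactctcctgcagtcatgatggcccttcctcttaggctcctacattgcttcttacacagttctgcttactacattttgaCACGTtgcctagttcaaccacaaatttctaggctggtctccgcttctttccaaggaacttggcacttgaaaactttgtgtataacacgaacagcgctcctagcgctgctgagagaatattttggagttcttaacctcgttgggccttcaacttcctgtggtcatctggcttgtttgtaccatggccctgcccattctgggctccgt

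Slc2a1 and Slc2a3, the genes of the widely expressed glucose transporter GLUT1 and of the high-affinity transporter GLUT3, went in opposite directions in both co-cultures. Slc2a1 (ENSMUSG00000028645, GRCm38 chromosome 4, 119108711 to 119137983) had 338, 315 and 320 CPM in PyMT-N co-culture, 58.7, 79.0 and 38.3 CPM in PyMT-M co-culture and 38.3, 28.4 and 23.4 CPM alone. Every PyMT-N library lay above every other library, and the lowest PyMT-M library stood level with the highest alone library. The log2 fold change over alone was 3.40 ± 0.27 (SE; adjusted p = 1.05e-07) with PyMT-N cells and 0.95 ± 0.28 (adjusted p = 0.00928) with PyMT-M cells, and PyMT-N exceeded PyMT-M co-culture by 2.45 ± 0.24 (adjusted p = 1.43e-06). Without PyMT-M replicate 2 the PyMT-M value was 0.69 (adjusted p = 0.0583). Slc2a3 (ENSMUSG00000003153, chromosome 6, 122727809 to 122801640) had 138, 87.6 and 54.7 CPM in PyMT-N co-culture, 1016, 819 and 638 CPM in PyMT-M co-culture and 1853, 1496 and 1421 CPM alone. Its 3 groups did not overlap, with alone highest. Slc2a3 fell 17.1-fold with PyMT-N cells (log2 -4.10 ± 0.29, adjusted p = 4.68e-08) and 1.93-fold with PyMT-M cells (-0.95 ± 0.26, adjusted p = 0.00603), where scaling to pan-leukocyte genes turned the PyMT-M value to 0.62 (adjusted p = 0.0138) and library totals left -0.44 (adjusted p = 0.148).

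Within a library, the share of a paralog in its step does not depend on how libraries are scaled. Per length of exon sequence, Slc2a1 made up 83.5%, 88.1% and 92.4% of the level of both transporters in PyMT-N libraries, 10.7%, 16.6% and 11.0% in PyMT-M libraries and 4.10%, 3.78% and 3.29% in alone libraries. The major transporter transcript was thus Slc2a1 in each PyMT-N library and Slc2a3 in the other 6. For each of the 3 pairs of groups, the shares did not overlap, with an exact two-sided permutation p of 0.1, the smallest that 3 against 3 libraries can give (Benjamini-Hochberg value 0.122 over 39 share comparisons, as for each share below whose groups do not overlap). No share could therefore pass a threshold of 0.05.

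**Figure D2:**
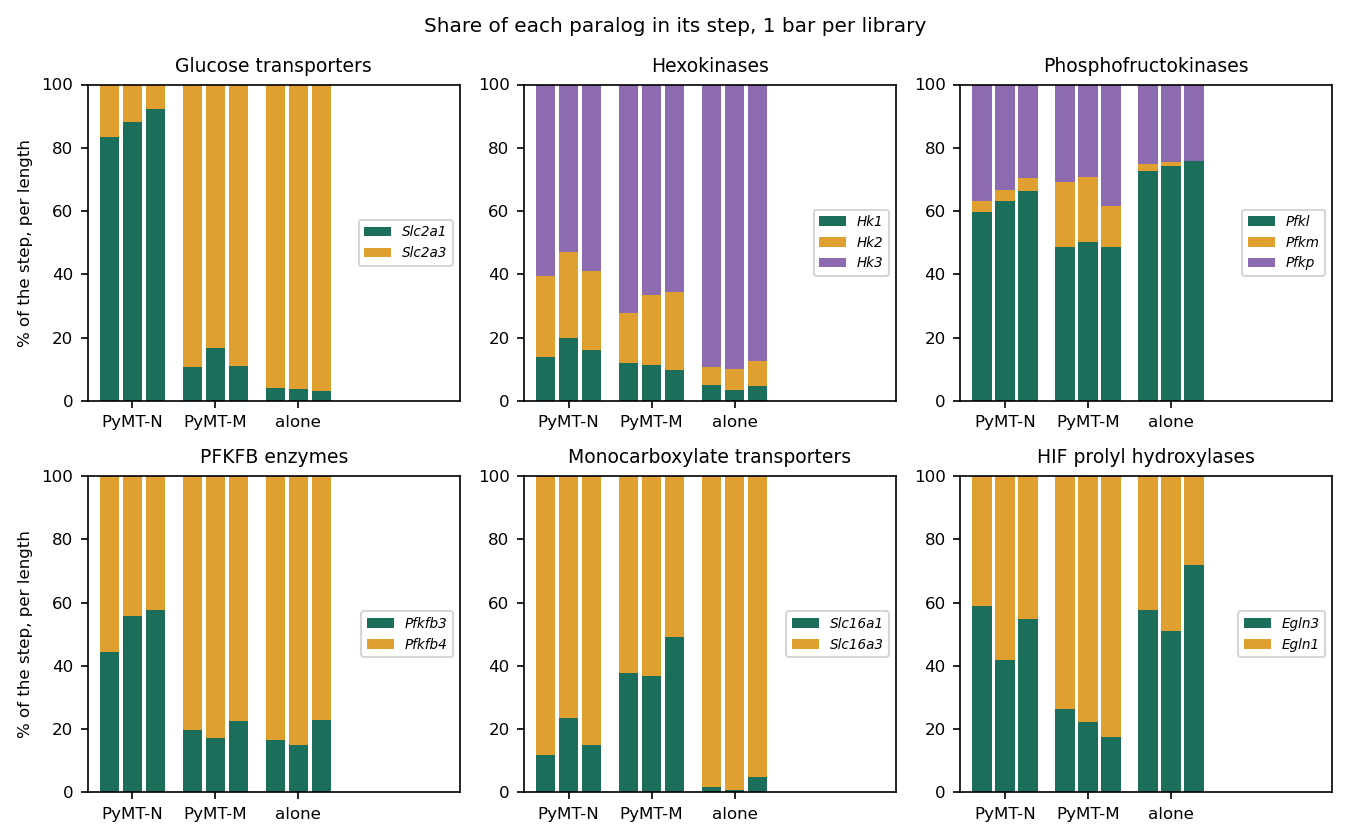
Share of each paralog in the length-scaled level of its step, in percent, with 1 stacked bar per library, PyMT-N co-culture left, PyMT-M co-culture in the middle and alone right. Slc2a1 takes 83.5% to 92.4% of the transporter bar in PyMT-N libraries and at most 16.6% elsewhere, and Slc16a1 takes 36.8% to 49.0% of the lactate transporter bar in PyMT-M libraries and at most 23.5% elsewhere.

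Among the hexokinases, which trap glucose in the cell by phosphorylation, Hk3 fell in both co-cultures and Hk1 and Hk2 rose with PyMT-N cells. Hk3, found mainly in myeloid cells (ENSMUSG00000025877, chromosome 13, 55005985 to 55021385), had 210, 128 and 169 CPM in PyMT-N co-culture, 190, 137 and 131 CPM in PyMT-M co-culture and 575, 613 and 475 CPM alone. Both co-cultures lay below all alone libraries and overlapped each other. Its log2 fold change was -1.72 ± 0.21 (adjusted p = 9.00e-06) with PyMT-N cells and -1.86 ± 0.21 (adjusted p = 5.84e-06) with PyMT-M cells, and the PyMT-M call was lost with pan-leukocyte scaling at -0.30 (adjusted p = 0.215). Hk2, the inducible hexokinase, had 145, 107 and 116 CPM in PyMT-N co-culture, 67.5, 73.7 and 81.2 CPM in PyMT-M co-culture and 58.8, 69.9 and 69.4 CPM alone. Hk1, the most broadly expressed form, had 111, 112 and 106 CPM in PyMT-N co-culture, 72.4, 53.6 and 45.0 CPM in PyMT-M co-culture and 76.6, 56.8 and 61.1 CPM alone. For both genes the PyMT-N libraries stood above all others, while PyMT-M and alone libraries overlapped. Against alone, Hk2 rose by 0.89 ± 0.21 (adjusted p = 0.00217) and Hk1 by 0.76 ± 0.23 (adjusted p = 0.0116) with PyMT-N cells, and both were higher with PyMT-N than with PyMT-M cells, by 0.73 ± 0.20 (adjusted p = 0.00922) and 0.94 ± 0.22 (adjusted p = 0.00329). Without alone replicate 2 the PyMT-N value of Hk1 was 0.66 (adjusted p = 0.0559), and without PyMT-N replicate 1 or PyMT-M replicate 1 the difference of Hk2 between co-cultures was 0.59 (adjusted p = 0.0570) or 0.66 (adjusted p = 0.0507). Hk3 held 57.4% ± 4.12 of the hexokinase level with PyMT-N cells, 68.1% ± 3.69 with PyMT-M cells and 88.9% ± 1.42 alone (SD, n = 3 each), with no overlap between groups. Hk2 held 26.0% ± 1.2, 20.9% ± 4.67 and 6.61% ± 1.14 in that order, also without overlap.

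Gpi1, the isomerase that follows hexokinase, fell alike in both co-cultures. It had 294, 247 and 268 CPM with PyMT-N cells, 287, 248 and 270 CPM with PyMT-M cells and 773, 803 and 655 CPM alone. All 6 co-culture libraries lay below the alone libraries, and the co-cultures overlapped. The log2 fold change was -1.47 ± 0.16 in both (adjusted p = 2.39e-06 with PyMT-N and 3.31e-06 with PyMT-M cells), and under pan-leukocyte scaling it was -0.30 (adjusted p = 0.171) and 0.11 (adjusted p = 0.616).

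Phosphofructokinase, the committed step, gained its platelet-type gene Pfkp in both co-cultures and its liver-type gene Pfkl with PyMT-N cells. Pfkp had 159, 131 and 123 CPM in PyMT-N co-culture, 70.5, 76.2 and 87.0 CPM in PyMT-M co-culture and 44.6, 50.8 and 46.8 CPM alone. The 3 groups did not overlap. The log2 fold change of Pfkp over alone was 1.53 ± 0.21 (adjusted p = 2.48e-05) with PyMT-N cells and 0.71 ± 0.21 (adjusted p = 0.0109) with PyMT-M cells, and the co-cultures differed by 0.82 ± 0.19 (adjusted p = 0.00352). Pfkl had 128, 124 and 138 CPM in PyMT-N co-culture, 55.5, 65.7 and 54.8 CPM in PyMT-M co-culture and 64.2, 77.0 and 72.4 CPM alone. PyMT-N libraries were highest, and the other groups overlapped. Pfkl rose by 0.87 ± 0.20 (adjusted p = 0.00175) over alone and stood 1.14 ± 0.19 (adjusted p = 2.11e-04) above PyMT-M co-culture. The muscle-type gene Pfkm was scarce, at 3.31 to 4.52 CPM with PyMT-N cells, 7.19 to 13.6 CPM with PyMT-M cells and 0 to 0.891 CPM alone. It was called higher in both co-cultures and lower with PyMT-N than with PyMT-M cells (log2 -1.5 ± 0.38, adjusted p = 0.00459), and its call with PyMT-N cells (2.54 ± 0.84, adjusted p = 0.0168) was lost without alone replicate 1 (2.89, adjusted p = 0.0543) or 2 (2.73, adjusted p = 0.0748). Per length, Pfkm made up 18.1% ± 4.59 of phosphofructokinase in PyMT-M co-culture, against 3.73% ± 0.531 in PyMT-N co-culture and 1.15% ± 1.04 alone. Counts not divided by length gave a smaller difference between PyMT-M co-culture and alone, 6.91 in place of 16.9 percentage points.

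The PFKFB enzymes make and break the sugar phosphate that activates phosphofructokinase, and Pfkfb3 has the strongest kinase activity of the family. Pfkfb3 (chromosome 2, 11471433 to 11554077) had 125, 132 and 115 CPM in PyMT-N co-culture, 39.3, 31.1 and 41.3 CPM in PyMT-M co-culture and 64.6, 74.7 and 73.9 CPM alone. Its groups did not overlap, with PyMT-N highest and PyMT-M lowest. The log2 fold change over alone was 0.80 ± 0.20 (adjusted p = 0.00397) with PyMT-N cells and -0.94 ± 0.22 (adjusted p = 0.00187) with PyMT-M cells, and the co-cultures differed by 1.74 ± 0.20 (adjusted p = 9.14e-06). With library totals the PyMT-M value was -0.43 (adjusted p = 0.103) and with pan-leukocyte scaling 0.64 (adjusted p = 0.0452), while the difference between the co-cultures passed the threshold in each alternative. Pfkfb4 had 100, 67.8 and 54.5 CPM in PyMT-N co-culture, 104, 95.6 and 91.0 CPM in PyMT-M co-culture and 209, 271 and 161 CPM alone. Both co-cultures lay below alone and overlapped each other, with log2 fold changes of -1.54 ± 0.25 (adjusted p = 9.76e-05) and -1.15 ± 0.24 (adjusted p = 9.61e-04), or -0.41 (adjusted p = 0.171) and 0.42 (adjusted p = 0.144) with pan-leukocyte scaling. Pfkfb3 made up 52.6% ± 7.11 of the PFKFB level with PyMT-N cells, 19.8% ± 2.65 with PyMT-M cells and 18.2% ± 4.12 alone. The PyMT-N shares did not overlap those of either other group, while PyMT-M and alone shares did (exact permutation p = 0.6, n = 3 each).

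**Figure D3:**
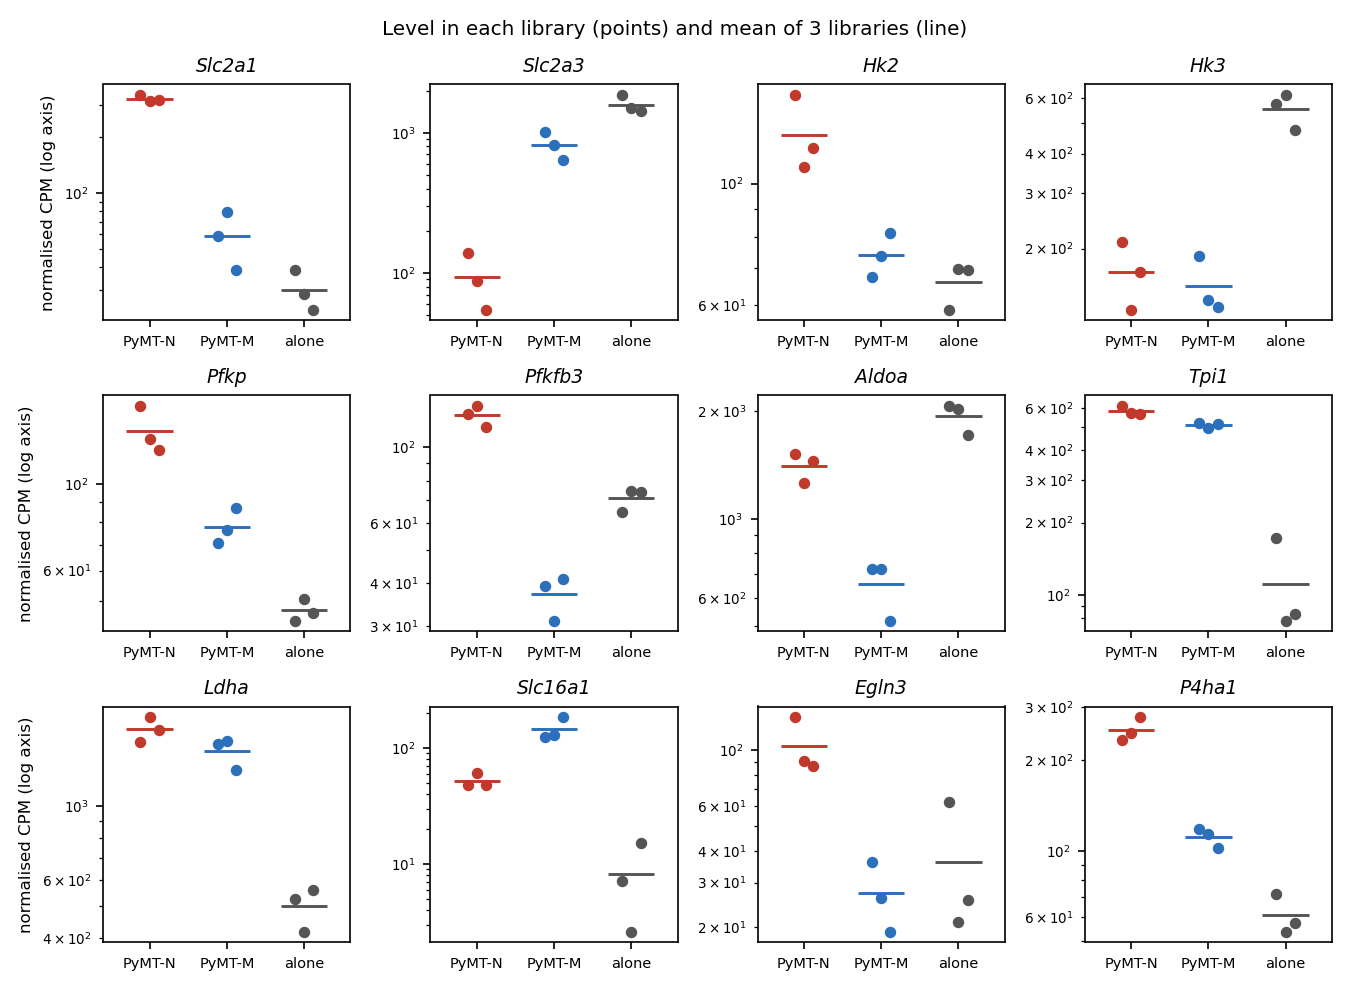
Normalised CPM (log axis) of 12 genes in each library, with PyMT-N co-culture left, PyMT-M co-culture in the middle and alone right, and a line at the mean of 3 libraries. Slc2a1, Hk2, Pfkp, Pfkfb3, Egln3 and P4ha1 are highest in PyMT-N libraries, Slc16a1 is highest in PyMT-M libraries, Slc2a3, Hk3 and Aldoa are highest alone, and Tpi1 and Ldha are high in both co-cultures.

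The steps from aldolase to pyruvate kinase did not move as a block. Aldoa, the main aldolase, had 1513, 1256 and 1447 CPM in PyMT-N co-culture, 726, 725 and 519 CPM in PyMT-M co-culture and 2064, 2023 and 1714 CPM alone. The 3 groups did not overlap. Its log2 fold change was -0.46 ± 0.16 (adjusted p = 0.0267) with PyMT-N cells and -1.56 ± 0.17 (adjusted p = 2.89e-06) with PyMT-M cells. The PyMT-N call was lost without PyMT-N replicate 2 (-0.37, adjusted p = 0.121) or 3 (-0.47, adjusted p = 0.0724) and without alone replicate 1 (-0.41, adjusted p = 0.0884) or 2 (-0.43, adjusted p = 0.0826). Library totals also ended it (-0.17, adjusted p = 0.410), and pan-leukocyte scaling gave 0.70 with PyMT-N cells and 0.02 with PyMT-M cells. The brain-type aldolase gene Aldoc was low, at 12.1 to 16.6 CPM with PyMT-N cells, 0 to 1.60 CPM with PyMT-M cells and 0.754 to 4.46 CPM alone, and stood 4.58 ± 0.61 higher on the log2 scale with PyMT-N than with PyMT-M cells (adjusted p = 1.70e-05). Tpi1, triosephosphate isomerase (chromosome 6, 124810586 to 124814296), had 609, 569 and 566 CPM in PyMT-N co-culture, 520, 495 and 512 CPM in PyMT-M co-culture and 173, 78.1 and 83.0 CPM alone. All co-culture libraries lay above all alone libraries. Tpi1 rose 5.17-fold with PyMT-N cells (log2 2.37 ± 0.25, adjusted p = 1.53e-06) and 4.53-fold with PyMT-M cells (2.18 ± 0.25, adjusted p = 4.91e-06).

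Gapdh, glyceraldehyde phosphate dehydrogenase and often used as a control gene, had 3216, 3230 and 3498 CPM in PyMT-N co-culture, 2553, 2401 and 2066 CPM in PyMT-M co-culture and 2403, 2248 and 2533 CPM alone. PyMT-N libraries were highest, and the other groups overlapped. Gapdh was 0.47 ± 0.13 higher with PyMT-N cells than alone (adjusted p = 0.00858), with -0.03 ± 0.13 (adjusted p = 0.851) for PyMT-M cells, which library totals turned to 0.48 (adjusted p = 0.00813) and pan-leukocyte scaling to 1.55. Pgk1, phosphoglycerate kinase, had 725, 683 and 660 CPM in PyMT-N co-culture, 492, 493 and 535 CPM in PyMT-M co-culture and 558, 543 and 530 CPM alone. PyMT-N libraries were highest again, but its value over alone, 0.34 ± 0.14 (adjusted p = 0.0538), missed the threshold. Pgk1 passed it by DESeq2 (0.38, adjusted p = 0.00473). In edgeR it passed with library totals (0.63, adjusted p = 0.0015) and pan-leukocyte scaling (1.51, adjusted p = 5.93e-07), which shift this comparison upward. Its difference between PyMT-N and PyMT-M co-culture, 0.44 ± 0.14 (adjusted p = 0.0228), was lost without any 1 of the PyMT-N replicates or of PyMT-M replicates 1 and 2 (0.41 to 0.48). Pgam1, phosphoglycerate mutase, had 191, 140 and 187 CPM in PyMT-N co-culture, 96.7, 102 and 80.7 CPM in PyMT-M co-culture and 84.7, 84.8 and 81.5 CPM alone. PyMT-N libraries stood above the rest, with 1.04 ± 0.20 over alone (adjusted p = 4.77e-04) and 0.89 ± 0.19 over PyMT-M co-culture (adjusted p = 0.00182).

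Eno1, the main enolase, had 816, 668 and 809 CPM in PyMT-N co-culture, 440, 443 and 320 CPM in PyMT-M co-culture and 508, 521 and 1742 CPM alone. The last value, from alone replicate 3, stood apart from its group. Its near copy Eno1b had 144, 142 and 67 counts over the PyMT-N, PyMT-M and alone libraries, against 9026, 5571 and 4842 for Eno1, and reads that match both may have been split. With that library Eno1 was -0.26 ± 0.40 (adjusted p = 0.61) for PyMT-N cells and -1.19 ± 0.41 (adjusted p = 0.0272) for PyMT-M cells. Without it the values were 0.58 (adjusted p = 0.00591) and -0.35 (adjusted p = 0.0746), so 1 library decided both the direction with PyMT-N cells and the call with PyMT-M cells. The PyMT-M call was also lost without any 1 of the PyMT-M replicates (-1.03 to -1.25). Eno2, the neuronal enolase, had 7, 19 and 19 counts over the PyMT-N, PyMT-M and alone libraries and was not tested. Pkm, pyruvate kinase, had 1659, 1275 and 1409 CPM in PyMT-N co-culture, 741, 809 and 639 CPM in PyMT-M co-culture and 1646, 1702 and 1415 CPM alone. PyMT-M libraries were lowest, and PyMT-N overlapped alone. Pkm fell by 1.12 ± 0.16 on the log2 scale with PyMT-M cells (adjusted p = 3.26e-05), against -0.13 ± 0.16 (adjusted p = 0.488) with PyMT-N cells, and pan-leukocyte scaling gave 0.46 and 1.02.

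Summed over the 16 enzyme genes from hexokinase to pyruvate kinase, the level was 9796, 8687 and 9517 CPM in PyMT-N co-culture, 6324, 6136 and 5354 CPM in PyMT-M co-culture and 9036, 8877 and 9481 CPM alone. PyMT-M libraries were lowest, and PyMT-N overlapped alone. The means were 9333 ± 577, 5938 ± 515 and 9131 ± 313 CPM (SD, n = 3), a log2 difference of 0.03 for PyMT-N over alone (exact two-sided permutation p = 0.7), -0.62 for PyMT-M over alone (p = 0.1) and 0.65 for PyMT-N over PyMT-M (p = 0.1), with 0.15 the Benjamini-Hochberg value of both comparisons with PyMT-M co-culture and 0.1 the smallest p possible. The direction for PyMT-M over alone depended on the scaling, with -0.12 by library totals and 0.96 by pan-leukocyte genes, while PyMT-N exceeded PyMT-M co-culture by 0.44 and 0.24 in these. For PyMT-N over alone they gave 0.32 and 1.2. Per length, the 3 highest of the 35 genes were Gapdh, Ldha and Aldoa in PyMT-N co-culture (802, 515 and 483 CPM per kilobase), Gapdh, Ldha and Pgk1 in PyMT-M co-culture (566, 443 and 226, level with Aldoa at 226) and Aldoa, Gapdh and Pkm alone (664, 579 and 318).

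**Figure D4:**
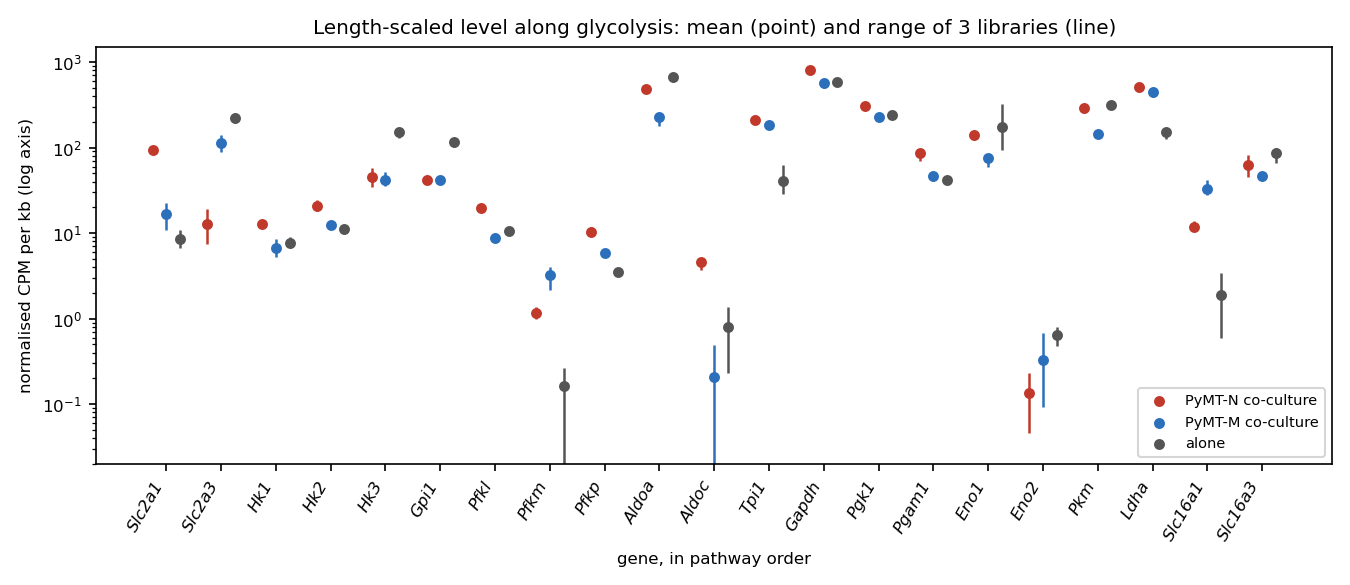
Length-scaled level, as normalised CPM per kilobase of exon sequence on a log axis, of 21 genes from glucose uptake to lactate export, with the mean (point) and range (line) of 3 libraries for PyMT-N co-culture, PyMT-M co-culture and alone. Lines that reach the lower edge include a library at 0. Gapdh has 802, 566 and 579 CPM per kilobase in that order of groups, and Slc2a3 has 12.9, 114 and 219.

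Transcripts for lactate formation and export differed from alone in both co-cultures. Ldha, lactate dehydrogenase (chromosome 7, 46841475 to 46855627), had 1562, 1854 and 1700 CPM in PyMT-N co-culture, 1541, 1573 and 1289 CPM in PyMT-M co-culture and 524, 419 and 559 CPM alone. All co-culture libraries lay above all alone libraries, and the co-cultures overlapped. Ldha rose 3.41-fold with PyMT-N cells (log2 1.77 ± 0.16, adjusted p = 3.68e-07) and 2.94-fold with PyMT-M cells (1.55 ± 0.16, adjusted p = 2.11e-06), and PyMT-N differed from PyMT-M co-culture by 0.22 ± 0.15 (adjusted p = 0.303). Of the 5 promoter windows printed above, that of Ldha has the most core matches, 7, with 2 palindromic CACGTG runs. That of Slc16a1 has 5 with 1 such run. A second Ldha window, not printed, has 2 matches. The window of Tpi1, also higher in both co-cultures, has 0, and that of Bnip3, called lower with PyMT-M cells, has 5. Any link between matches and levels was not tested. Slc16a1, the gene of the lactate transporter MCT1 (ENSMUSG00000032902, chromosome 3, 104638668 to 104658462), had 47.6, 61.2 and 47.6 CPM in PyMT-N co-culture, 123, 128 and 183 CPM in PyMT-M co-culture and 7.13, 2.62 and 15.1 CPM alone. The groups did not overlap, and here PyMT-M was highest. Slc16a1 rose 7.31-fold with PyMT-N cells (2.87 ± 0.41, adjusted p = 3.36e-05) and 20.2-fold with PyMT-M cells (4.34 ± 0.38, adjusted p = 5.98e-07), and was lower with PyMT-N than with PyMT-M cells (-1.47 ± 0.27, adjusted p = 5.39e-04). Without alone replicate 3 the values over alone were 3.47 and 4.94.

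Slc16a3 encodes MCT4, which exports lactate from glycolytic cells. It had 431, 239 and 322 CPM in PyMT-N co-culture, 245, 263 and 228 CPM in PyMT-M co-culture and 533, 494 and 347 CPM alone. PyMT-M lay below alone, and PyMT-N overlapped both. Slc16a3 was called lower with PyMT-M cells (-0.90 ± 0.22, adjusted p = 0.00261), where library totals gave -0.40 (adjusted p = 0.132) and pan-leukocyte scaling 0.68. With PyMT-N cells its value was -0.48 ± 0.22 (adjusted p = 0.0764), and it passed the threshold without PyMT-N replicate 1 (-0.70, adjusted p = 0.0211) or alone replicate 3 (-0.63, adjusted p = 0.00675). The share of Slc16a1 in both transporters was 16.8% ± 6.06 with PyMT-N cells, 41.1% ± 6.83 with PyMT-M cells and 2.39% ± 2.28 alone, without overlap. Pdk1, the kinase that shuts off pyruvate dehydrogenase, had 68.9, 81.5 and 71.7 CPM in PyMT-N co-culture, 75.7, 88.9 and 74.3 CPM in PyMT-M co-culture and 27.6, 14.9 and 41.5 CPM alone. Both co-cultures lay above alone and overlapped each other, with log2 fold changes of 1.49 ± 0.30 (adjusted p = 6.22e-04) and 1.60 ± 0.29 (adjusted p = 3.29e-04).

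In the HIF system, Hif1a and the prolyl hydroxylase genes Egln1 and Egln3 were higher with PyMT-N cells, and Hif1a and Egln1 also with PyMT-M cells. The remaining prolyl hydroxylase gene, Egln2, was lower with PyMT-N cells, at 9.74 ± 2.98 CPM against 26.7 ± 10.7 CPM alone (SD, n = 3; log2 -1.55 ± 0.39, adjusted p = 0.00368). Hif1a (chromosome 12, 73901375 to 73947530) had 511, 386 and 409 CPM in PyMT-N co-culture, 284, 344 and 301 CPM in PyMT-M co-culture and 215, 105 and 256 CPM alone. The groups did not overlap. Its log2 fold change over alone was 1.2 ± 0.25 (adjusted p = 0.00108) with PyMT-N cells and 0.71 ± 0.25 (adjusted p = 0.0268) with PyMT-M cells, the PyMT-M value being 0.64 (adjusted p = 0.0816) without PyMT-M replicate 2 and 0.41 (adjusted p = 0.118) without alone replicate 2. Egln1, the main prolyl hydroxylase that marks HIF alpha in normal oxygen, had 127, 172 and 96.6 CPM in PyMT-N co-culture, 138, 125 and 121 CPM in PyMT-M co-culture and 61.5, 27.3 and 13.6 CPM alone. All co-culture libraries were above all alone libraries, with 1.88 ± 0.36 (adjusted p = 4.36e-04) and 1.84 ± 0.35 (adjusted p = 5.05e-04), or 2.59 and 2.55 without alone replicate 1. Egln3, the hydroxylase gene that HIF induces, had 135, 90.9 and 87.0 CPM in PyMT-N co-culture, 36.3, 26.1 and 19.2 CPM in PyMT-M co-culture and 62.4, 20.9 and 25.6 CPM alone. PyMT-N libraries lay above all others, and PyMT-M overlapped alone. Egln3 was 1.5 ± 0.36 (adjusted p = 0.00271) above alone, or 2.19 without alone replicate 1, and 1.92 ± 0.34 (adjusted p = 4.21e-04) above PyMT-M co-culture. Egln3 made up 51.8% ± 8.99 of Egln1 and Egln3 together with PyMT-N cells, 22% ± 4.32 with PyMT-M cells and 60.2% ± 10.7 alone. PyMT-M shares lay below all others, and PyMT-N overlapped alone (exact permutation p = 0.5, n = 3 each).

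Of the other HIF targets, P4ha1 and P4ha2, subunits of the prolyl hydroxylase that matures collagen, and Adm, which encodes the peptide adrenomedullin, rose with either cell line. P4ha1 had 233, 246 and 278 CPM in PyMT-N co-culture, 118, 114 and 102 CPM in PyMT-M co-culture and 71.7, 53.8 and 57.3 CPM alone. The groups did not overlap, with log2 fold changes over alone of 2.05 ± 0.20 (adjusted p = 6.70e-07) and 0.87 ± 0.20 (adjusted p = 0.00177) and a difference between the co-cultures of 1.18 ± 0.18 (adjusted p = 1.08e-04). P4ha2 had 21.2, 30.6 and 25.6 CPM in PyMT-N co-culture, 54.4, 44.1 and 58.0 CPM in PyMT-M co-culture and 1.34, 0 and 0 CPM alone. With 3 counts over the alone libraries, its ratio to alone was 53.8 (95% counting interval 18.2 to 262) for PyMT-N and 107 (36.5 to 521) for PyMT-M co-culture, and PyMT-M stood highest (PyMT-N over PyMT-M -1.01 ± 0.27, adjusted p = 0.00805). Adm had 9.76, 20.9 and 17.2 CPM in PyMT-N co-culture, 12.7, 20.6 and 9.05 CPM in PyMT-M co-culture and no count alone. With 3 counts over the alone libraries taken as its limit, it was at least 33.6-fold higher with PyMT-N cells (adjusted p = 1.97e-04) and at least 30.7-fold higher with PyMT-M cells (adjusted p = 2.70e-04). Both the interval and the limit hold counting error alone. Adm and P4ha2 passed the filter through the co-culture libraries, so their calls over alone only describe them. The summed mesenchymal markers were lowest alone as well, at 216 to 267 CPM, and their part in these values was not tested.

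Ankrd37, a small HIF-induced gene, and Ddit4, an inhibitor of mTOR signalling, were highest with PyMT-N cells. Ankrd37 had 33.0, 25.6 and 22.8 CPM in PyMT-N co-culture, 5.59, 4.39 and 2.13 CPM in PyMT-M co-culture and 16.0, 5.23 and 10.6 CPM alone. PyMT-N libraries lay above all others, and PyMT-M overlapped alone. It rose by 1.38 ± 0.40 (adjusted p = 0.00931) with PyMT-N cells, a call lost without alone replicate 2 (0.96, adjusted p = 0.0735), and stood 2.69 ± 0.40 (adjusted p = 8.37e-05) above PyMT-M co-culture. With PyMT-M cells it was called lower (-1.31 ± 0.51, adjusted p = 0.0401), but not without alone replicate 1 (-0.77, adjusted p = 0.317) or PyMT-M replicate 2 (-1.35, adjusted p = 0.0803) or 3 (-1.04, adjusted p = 0.121). Ddit4 had 77.2, 57.0 and 69.7 CPM in PyMT-N co-culture, 23.6, 36.8 and 24.5 CPM in PyMT-M co-culture and 37.9, 21.7 and 3.77 CPM alone. PyMT-N libraries were highest, and the other groups overlapped. Ddit4 rose by 1.57 ± 0.40 over alone (adjusted p = 0.00373), or 2.19 without alone replicate 1, and by 1.25 ± 0.35 over PyMT-M co-culture (adjusted p = 0.0115), a call lost without PyMT-N replicate 1 (1.16, adjusted p = 0.0508) or PyMT-M replicate 1 (1.13, adjusted p = 0.0601).

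Vegfa, the angiogenic growth factor gene, had 91.3, 84.6 and 80.3 CPM in PyMT-N co-culture, 57.6, 55.4 and 55.1 CPM in PyMT-M co-culture and 51.2, 72.5 and 21.1 CPM alone. PyMT-N libraries were highest, and PyMT-M overlapped alone. Vegfa was called over alone with PyMT-N cells (0.75 ± 0.29, adjusted p = 0.0423), and among fits without 1 library only the one without alone replicate 2 kept the call (1.16, adjusted p = 0.00752, against 0.46 to 0.81 in the other 5). Bnip3, which acts in mitophagy, had 65.4, 61.4 and 56.4 CPM in PyMT-N co-culture, 20.6, 20.6 and 25 CPM in PyMT-M co-culture and 64.6, 32.5 and 18.1 CPM alone. The alone libraries overlapped both co-cultures, which stood apart from each other (PyMT-N over PyMT-M 1.47 ± 0.31, adjusted p = 0.00179). Over alone, its value was 0.61 ± 0.32 (adjusted p = 0.122) with PyMT-N cells and -0.86 ± 0.34 (adjusted p = 0.0437) with PyMT-M cells. Without alone replicate 1 these became 1.19 (adjusted p = 0.0063) and -0.28 (adjusted p = 0.508), and the PyMT-M call was also lost without any 1 PyMT-M replicate (-0.79 to -0.94). Ndrg1, a stress-responsive gene, had 153, 130 and 162 CPM in PyMT-N co-culture, 101, 98.3 and 104 CPM in PyMT-M co-culture and 221, 253 and 194 CPM alone. Its groups did not overlap and alone was highest. Ndrg1 fell by 0.59 ± 0.18 (adjusted p = 0.0118) and by 1.14 ± 0.18 (adjusted p = 9.47e-05) on the log2 scale. The PyMT-N call was lost without PyMT-N replicate 2 (-0.49, adjusted p = 0.0642) or alone replicate 2 (-0.48, adjusted p = 0.0662), and pan-leukocyte scaling gave 0.57 with PyMT-N and 0.44 with PyMT-M cells. Between the co-cultures Ndrg1 differed by 0.55 ± 0.18 (adjusted p = 0.0248). That call was lost without PyMT-N replicate 1 or 3 or any 1 PyMT-M replicate (0.49 to 0.57). It was also lost with library totals (0.34, adjusted p = 0.161), pan-leukocyte scaling (0.13, adjusted p = 0.673) and no filter on low counts (0.54, adjusted p = 0.0857).

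The scaling of the libraries sets the zero of every fold change, and the groups differed in how much leukocyte RNA their libraries held. The summed level of 30 pan-leukocyte genes was 12906 to 16367 CPM in PyMT-N co-culture, 9296 to 12497 CPM in PyMT-M co-culture and 30914 to 32766 CPM alone. Relative to TMM, the all-gene median shifted under library totals by 0.29 (PyMT-N over alone), 0.50 (PyMT-M over alone) and -0.21 (PyMT-N over PyMT-M) on the log2 scale, and under scaling to the pan-leukocyte genes by 1.16, 1.57 and -0.41. A scaling moves all genes of a comparison together, so a gene's place relative to the median of all genes is nearly fixed by construction. By that reading, 25 of the 34 tested genes lay above the median of all genes for PyMT-N over alone and 9 below, and 28 and 6 for PyMT-N over PyMT-M. For PyMT-M over alone, 16 lay above and 18 below under TMM. The other scalings shift both comparisons with alone upward, so that falls could be lost under them and rises hardly could. Of the falls, Slc2a3 and Hk3 with PyMT-N cells were called lower under each scaling, and none of the 12 falls with PyMT-M cells was called lower with pan-leukocyte scaling. For PyMT-N over PyMT-M the other scalings shift downward, so that higher calls could be lost under them and lower calls hardly could. Of the 18 genes higher with PyMT-N than with PyMT-M cells, Slc2a1, Pfkl, Pfkfb3, Aldoa, Aldoc, Pkm, Bnip3, Egln3, Ankrd37 and P4ha1 were called under each scaling, as were all 4 lower ones.

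**Figure D5:**
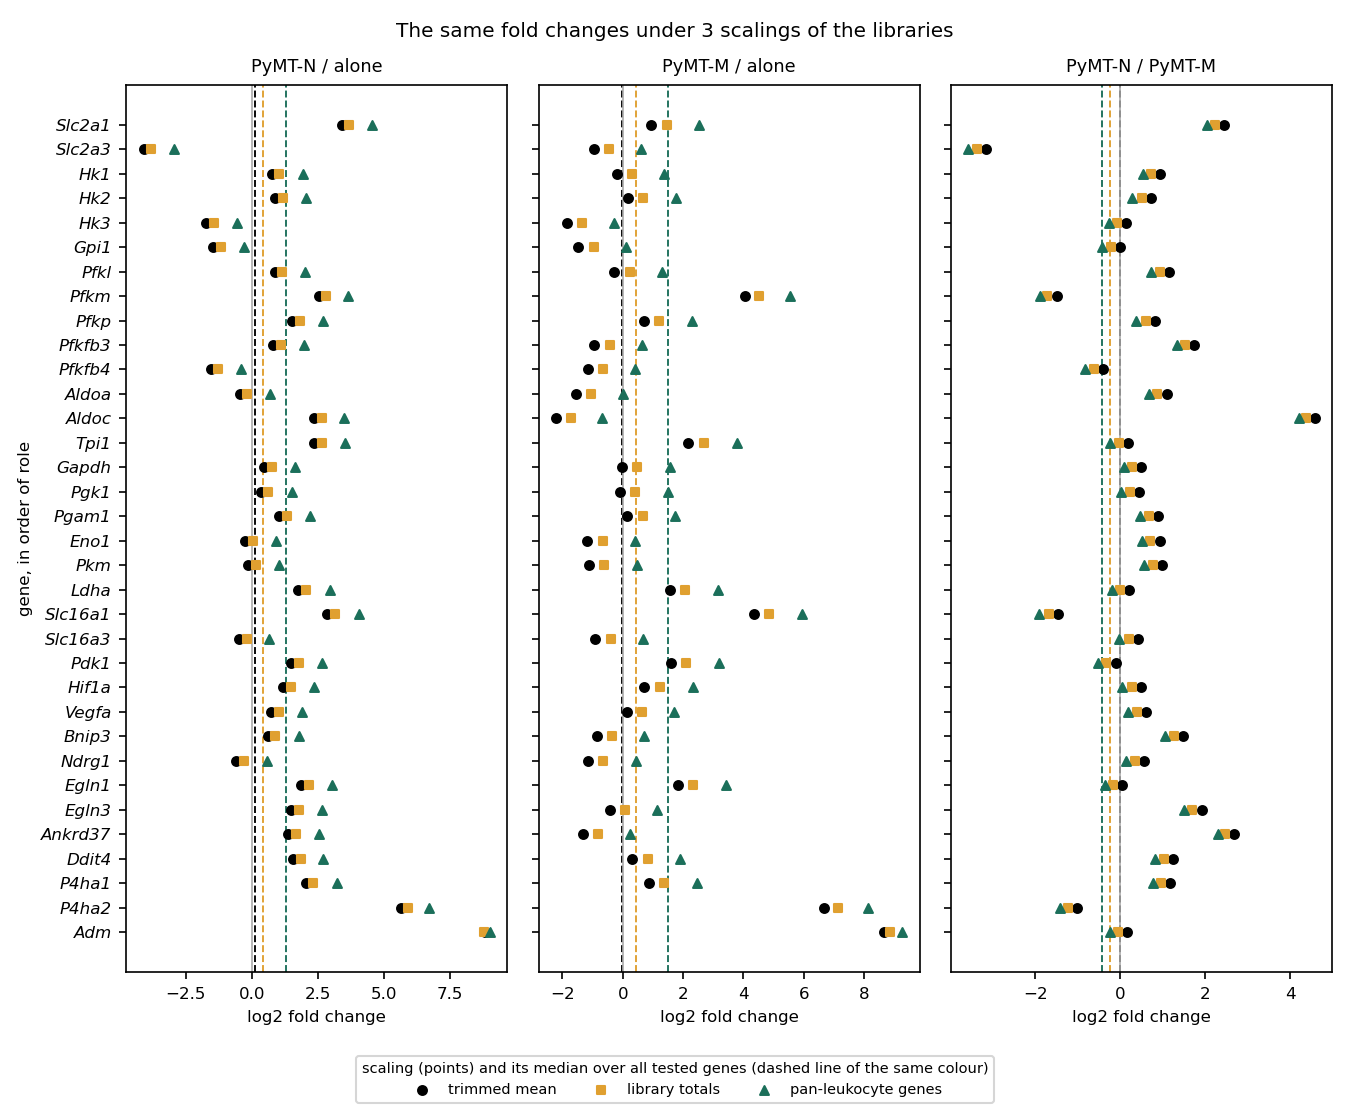
Log2 fold changes of the 34 tested genes under scaling by the trimmed mean, by library totals and by pan-leukocyte genes, for PyMT-N over alone (left), PyMT-M over alone (middle) and PyMT-N over PyMT-M (right), with dashed lines at the median of all tested genes under each scaling. Apart from Adm over alone, the points of each gene shift much as the dashed lines do, whose pan-leukocyte positions are 1.28, 1.51 and -0.42.

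Other genes of the same pathways, from lists that do not overlap the 35, fell into unlike patterns, and their counts stand beside 29.4% of all tested genes higher and 23.6% lower with PyMT-N cells and 28.1% and 27.9% with PyMT-M cells. Of 13 tested further glycolysis genes, 5 were higher and 2 lower with PyMT-N cells and 3 higher and 4 lower with PyMT-M cells. Bsg, the chaperone of the lactate transporters, rose with PyMT-N cells to 259 ± 29.0 CPM, against 84.7 ± 29.9 CPM alone (SD, n = 3; log2 1.65 ± 0.25, adjusted p = 5.01e-05). Adpgk, a hexose kinase that uses ADP, had 29.6 ± 3.79 CPM with PyMT-N cells, 219 ± 10.1 CPM with PyMT-M cells and 451 ± 80.6 CPM alone, and was lower in both (log2 -3.94 ± 0.21 and -1.05 ± 0.18, adjusted p = 1.61e-09 and 1.79e-04). Among 8 genes of the pentose phosphate pathway, which feeds NADPH to the neutrophil oxidase, 2 were higher and 4 lower with PyMT-N cells and 0 higher and 5 lower with PyMT-M cells. Transaldolase, Taldo1, had 1296 ± 52.3 CPM, 1053 ± 143 CPM and 4052 ± 193 CPM in PyMT-N co-culture, PyMT-M co-culture and alone, with log2 fold changes of -1.64 ± 0.14 (adjusted p = 2.37e-07) and -1.94 ± 0.14 (adjusted p = 1.12e-07). Tkt, transketolase, fell by 2.49 ± 0.20 with PyMT-N cells (adjusted p = 9.88e-08) and by 2.35 ± 0.20 with PyMT-M cells (adjusted p = 3.52e-07), and Pgd by 1.52 ± 0.18 (adjusted p = 4.90e-06) and 2.21 ± 0.18 (adjusted p = 3.03e-07). The leukocyte markers given above were highest alone too, and their part in these falls and in those of Slc2a3, Hk3 and Gpi1 was not tested. Rpia, ribose phosphate isomerase, rose with PyMT-N cells (1.77 ± 0.29, adjusted p = 1.10e-04).

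Of 11 tested components of the HIF pathway, 2 were higher and 4 lower with PyMT-N cells and 3 higher and 4 lower with PyMT-M cells. Arnt, the partner subunit of HIF alpha, had 24.2 ± 4.68 CPM with PyMT-N cells, 22.7 ± 2.47 CPM with PyMT-M cells and 46.4 ± 6.90 CPM alone, and its log2 fold changes were -0.97 ± 0.26 (adjusted p = 0.00561) and -1.04 ± 0.26 (adjusted p = 0.00312). Crebbp, a coactivator, was also lower in both (-1.10 ± 0.23 and -1.02 ± 0.22, adjusted p = 8.16e-04 and 0.00127). Cited2, which competes with HIF for coactivators, rose with PyMT-N cells (1.64 ± 0.22, adjusted p = 1.49e-05). Of 40 other tested genes known to be induced by hypoxia, 19 were higher and 9 lower with PyMT-N cells, with a median log2 fold change of 0.92, and 12 were higher and 11 lower with PyMT-M cells, with a median of 0.06. The medians of all genes were 0.12 and -0.03. Errfi1, a feedback inhibitor of EGF receptor signalling, had 314 ± 16.6 CPM with PyMT-N cells and 12.7 ± 3.35 CPM alone (log2 4.64 ± 0.25, adjusted p = 2.03e-09). The transcription factor gene Bhlhe40 (3.01 ± 0.19, adjusted p = 9.36e-09) rose as well with PyMT-N cells, while Cxcr4, the marrow-retention chemokine receptor, fell by 3.12 ± 0.28 (adjusted p = 3.04e-07). With PyMT-M cells the collagen lysyl hydroxylase gene Plod2 was at least 65.1-fold higher (adjusted p = 2.36e-06). It had 0 counts alone and 427 in PyMT-M libraries, so it passed the filter through other groups, and the bound sets 3 counts over the alone libraries and covers counting error alone. Mif rose by 3.52 ± 0.33 with PyMT-M cells (adjusted p = 9.05e-07), and the haem oxygenase gene Hmox1 fell by 2.77 ± 0.28 (adjusted p = 1.57e-06).

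A profile of the pathway was taken as the mean standardised log2 CPM of 1 enzyme for each of 10 steps, and 6179 other genes of mean log2 CPM at least 4 were ranked by their Pearson correlation with it over the 9 libraries. The profile was highest in PyMT-N libraries (0.34 to 0.77), lowest in PyMT-M libraries (-0.81 to -0.51) and near 0 alone (-0.00 to 0.11). The 5 genes most like it were Tlr2 (r = 0.997), Trem1 (0.992), Emilin2 (0.988), Osm (0.986) and Fas (0.985). Tlr2, a receptor for bacterial lipoproteins, had 462 ± 110 CPM with PyMT-N cells, 136 ± 21.4 CPM with PyMT-M cells and 284 ± 16.6 CPM alone (SD, n = 3). The points share 3 groups and the library scaling, so these are descriptions. The steps themselves followed the profile unevenly, from r = -0.02 for Tpi1 to 0.86 for Pgk1.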

How the data were processed

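Per the labels' protocols, the RNeasy Micro kit gave the RNA, of which 150 pg entered each QIAseq FX Single Cell library. The deposited table holds whole-number counts per Ensembl gene for 9 libraries. STAR and the builds GRCm38 and mm10 are named in the submitters' processing notes, which name no counting tool. Symbols and gene positions came from GENCODE M21 (54495 of 54532 identifiers). Genes were kept by edgeR's filter (minimum count 10, minimum total 15), scaled by TMM and fitted over all 9 libraries with 1 mean per group by edgeR 4.0.16 (limma 3.58.1, R 4.3.3). P-values were adjusted over 12012 genes, and an adjusted p under 0.05 was a call. SE is the absolute log2 fold change over the square root of F. Shares and sums were compared by exact permutation (scipy 1.17.1, Python 3.11.15). DESeq2 1.42.0, other scalings, other filters, a replicate block and fits without 1 library were alternatives. The fit was tested on simulated data with 50 changed genes per fold change and comparison. It called 0% to 2% of 1.5-fold, 6% to 24% of 2-fold, 64% to 76% of 4-fold and 78% to 88% of 8-fold changes. In the data far more genes were called, 34.6% to 56.0% of those tested. The Benjamini-Hochberg adjustment was thus stricter in the simulation, and its rates do not carry over to these comparisons. A gene not past the threshold may still differ. Genes named in full had at least 20 CPM in 1 group and a call, other lists name per comparison at most 3 genes called in the more frequent direction, taken by p, and 1 called the opposite way, and the similar genes are the 5 highest correlations. Values of Pfkm, Aldoc, Adm and Eno2 lie outside that rule. The members and lists were chosen with earlier results of these data known.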

Additional observations from a re-analysis of the deposited data

Results flagged for a closer look

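Of the 34 tested genes, 22 differed between the co-cultures by a direct test of PyMT-N against PyMT-M libraries (edgeR, adjusted p under 0.05), as did 34.6% of all tested genes. It is also the test of the difference between their responses, since both co-cultures are set against the same alone libraries. Under each scaling, 10 of the 18 higher calls and all 4 lower calls held. The other scalings shift this comparison downward, so the lower calls could hardly be lost under them. Those of Hk1, Hk2, Pfkp, Gapdh, Pgk1, Pgam1, Ndrg1 and Ddit4 were lost under at least 1 scaling. In glucose uptake the log2 differences, PyMT-N over PyMT-M co-culture, were 2.45 for Slc2a1 and -3.15 for Slc2a3. Early enzyme genes differed by 0.94 (Hk1), 0.73 (Hk2), 1.14 (Pfkl), -1.5 (Pfkm), 0.82 (Pfkp) and 1.74 (Pfkfb3). Later enzyme genes differed by 1.10 (Aldoa), 4.58 (Aldoc), 0.50 (Gapdh), 0.44 (Pgk1), 0.89 (Pgam1) and 0.99 (Pkm), and the lactate transporter gene Slc16a1 by -1.47. HIF targets differed by 1.47 (Bnip3), 0.55 (Ndrg1), 1.92 (Egln3), 2.69 (Ankrd37), 1.25 (Ddit4), 1.18 (P4ha1) and -1.01 (P4ha2). The summed epithelial markers without Lcn2 moved with this contrast too, at 2673 to 3567 CPM in PyMT-N co-culture and 128 to 193 CPM in PyMT-M co-culture, and their part in these differences was not tested.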

How the results depend on the processing

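Over 17 alternative settings, 1293 of 1421 values of single genes among the 35 kept their direction and their side of the threshold, 81 lost a call, 24 gained one and 23 changed direction. Another 41 that changed sign while past the threshold in neither setting are counted as unchanged. With library totals, PyMT-M against alone gave 1913 lower genes and 6 lower members (of the 35 genes), with log2 values of 0.48 for Gapdh and 0.40 for Pgk1. With pan-leukocyte scaling, PyMT-N against alone gave 7178 higher and 814 lower genes and 2 lower members, with Aldoa at 0.70, Pkm at 1.02, Slc16a3 at 0.66 and Ndrg1 at 0.57. For PyMT-M against alone that scaling gave 7927 higher and 241 lower genes and 25 higher and 0 lower members. Its log2 values were 0.62 (Slc2a3), 1.38 (Hk1), 0.11 (Gpi1), 1.31 (Pfkl), 0.64 (Pfkfb3), 0.42 (Pfkfb4), 0.015 (Aldoa), 1.55 (Gapdh), 1.5 (Pgk1), 0.40 (Eno1), 0.46 (Pkm), 0.68 (Slc16a3), 0.72 (Bnip3), 0.44 (Ndrg1), 1.13 (Egln3) and 0.24 (Ankrd37). For PyMT-N against PyMT-M it gave 1460 higher and 3363 lower genes and 10 higher members. The summed enzyme level gave 0.32, -0.12 and 0.44 by library totals and 1.2, 0.96 and 0.24 by pan-leukocyte genes, for PyMT-N over alone, PyMT-M over alone and PyMT-N over PyMT-M. Each scaling moves all genes together by construction. Without 1 library, Eno1 for PyMT-N over alone ranged between -0.55 and 0.58, the positive value arising without alone replicate 3.

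Without division by length, differences in share, in percentage points, were 76.4 for Slc2a1, 18.2 for Hk1, 20.8 for Hk2, -39.0 for Hk3, 0.957 for Pfkm and 0.911 for Aldoc for PyMT-N over alone. For PyMT-M over alone they were 4.80 for Slc2a1, 10.4 for Hk1, -27.3 for Hk3, -20.0 for Pfkl and 6.91 for Pfkm, and for PyMT-N over PyMT-M 8.21 for Pfkl, -5.95 for Pfkm and 1.00 for Ldhb.

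Leaving out 1 library left 20 to 23 members higher and 4 to 8 lower for PyMT-N over alone, 10 to 12 and 9 to 12 for PyMT-M over alone, and 14 to 18 and 4 to 4 for PyMT-N over PyMT-M. Over all genes, the higher and lower calls ranged from 3140 to 3907 and 2425 to 3275, from 2964 to 3648 and 2894 to 3857, and from 1922 to 2044 and 1316 to 1529 in the same order. The same numbers recur in the column names of each group, and no label says what they stand for. Same-numbered libraries of different groups did not deviate together (r -0.0781 to 0.0285). Such deviations from means of 3 libraries cannot show whether same-numbered libraries shared a source, so pairing is not settled. With the replicate block, 23 and 6 members were higher and lower for PyMT-N over alone, 12 and 11 for PyMT-M over alone and 18 and 4 for PyMT-N over PyMT-M, and 3412 and 2689, 3274 and 3243, and 2225 and 1736 genes. The shallowest library, alone replicate 3, had 1641049 counts.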

Other observations

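Genes that bring pyruvate into mitochondria and run the citric acid cycle had 9 of 33 higher and 6 lower with PyMT-N cells, near the 29.4% and 23.6% of all tested genes, and 14 higher and 4 lower with PyMT-M cells, where 28.1% and 27.9% of all tested genes were higher and lower. Idh3a, a subunit of isocitrate dehydrogenase, had 117 ± 7.60 CPM in PyMT-N co-culture, 70.1 ± 5.91 CPM in PyMT-M co-culture and 8.60 ± 6.17 CPM alone (SD, n = 3 each), with log2 fold changes of 3.59 ± 0.33 (edgeR, adjusted p = 4.22e-07) and 2.85 ± 0.34 (adjusted p = 7.33e-06). Suclg2, a subunit of succinyl-CoA synthetase, had 39.3 ± 9.65 CPM, 39.9 ± 8.01 CPM and 2.51 ± 2.15 CPM in the same order, and rose by 3.84 ± 0.48 (adjusted p = 7.51e-06) and 3.86 ± 0.47 (adjusted p = 8.73e-06). Acly, which makes cytosolic acetyl-CoA from citrate, rose with PyMT-N cells (1.5 ± 0.20, adjusted p = 1.5e-05), and the fumarase gene Fh1 rose with PyMT-M cells (2.06 ± 0.26, adjusted p = 1.11e-05). Mpc1, a subunit of the mitochondrial pyruvate carrier, went the other way, with 9.27 ± 1.38 CPM, 27.7 ± 2.21 CPM and 170 ± 13.2 CPM, and fell by 4.18 ± 0.24 (adjusted p = 3.58e-09) and 2.61 ± 0.21 (adjusted p = 2.38e-07) on the log2 scale.

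Glycogen metabolism, the store that feeds neutrophil glycolysis from within, had 1 of 17 genes higher and 8 lower with PyMT-N cells and 2 higher and 8 lower with PyMT-M cells, to be read against the same shares of all genes. Pygl, glycogen phosphorylase, had 457 ± 92.3 CPM in PyMT-N co-culture, 340 ± 36.0 CPM in PyMT-M co-culture and 1270 ± 276 CPM alone, and fell by 1.48 ± 0.20 (adjusted p = 1.68e-05) and 1.90 ± 0.20 (adjusted p = 2.37e-06). Ugp2, which makes UDP-glucose for glycogen, fell by 1.49 ± 0.21 (adjusted p = 3.51e-05) and 1.39 ± 0.21 (adjusted p = 6.86e-05). The branching enzyme gene Gbe1 fell by 2.48 ± 0.32 with PyMT-M cells (adjusted p = 1.62e-05). The phosphoglucomutase gene Pgm1 rose by 1.78 ± 0.24 with PyMT-N cells (adjusted p = 1.90e-05) and the phosphorylase kinase gene Phka1 by 2.38 ± 0.46 with PyMT-M cells (adjusted p = 4.37e-04). Ldhb, the second lactate dehydrogenase gene, had 215 counts over the PyMT-N libraries, 12 over the PyMT-M libraries and 92 over the alone libraries. The summed markers of neutrophils, monocytes, B cells, dendritic cells and eosinophils were lower in both co-cultures as well, and their part in these values was not tested.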
